A study of Homo sapiens with 8 samples.

Results

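This comparison set untreated HCT116 cells that lack p53 (p53-/-) against untreated HCT116 cells that carry it (p53+/+). The members are the 4 arrays whose titles name untreated cells of one or the other genotype, of 8 arrays in all. Of 24526 probes, the 13637 that passed detection (p under 0.05) on 2 or more of these 4 arrays were kept. HCT116 is an established cell line from a human colon carcinoma. Total RNA was labelled with biotin and measured on Illumina expression chips, with 2 arrays for untreated p53-/- cells and 2 arrays for untreated p53+/+ cells. Neither group received a compound. The remaining 4 arrays, 2 of p53-/- and 2 of p53+/+ cells exposed to the small molecule P2 at 25 µM, served here as a separate pair of groups with the same genotypes. The labels name no clone, passage, solvent control or separate culture for any array. Loss of p53 and any other difference between the lines therefore cannot be told apart, and the p-values reflect array-to-array variation that could be technical only. With 2 arrays per group their number limits the precision. The gene targeted in the p53-/- line is not analysed here, so the genotype labels were not checked against it.

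p53 is a transcription factor that binds DNA as a tetramer. In unstressed cells its level is held low by MDM2, a ubiquitin ligase that is itself a p53 target. After DNA damage the protein accumulates and activates genes for cell cycle arrest, DNA repair, altered metabolism and cell death, and through the CDK inhibitor p21 it lowers many cell cycle genes. The untreated lines give the level of each target with and without p53 before any compound was applied.

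The colon label was checked against marker genes. CDH1, CDX2, CLDN3, CLDN4, CLDN7, EPCAM, KRT19 and KRT8, which are 8 of the 13 colon epithelial markers on the array, were detected on all 4 untreated arrays, whereas CDH17, CDX1, LGALS4 and VIL1 were detected on none. Of the other cell types, 9 of 12 fibroblast, 7 of 11 leukocyte, 7 of 10 endothelial and 4 of 6 erythroid markers were detected on none of the 4. Of all 24526 probes, 9900 were detected on none. Detected on all 4 were COL1A1 and PDGFRA (fibroblast), CD68, CD74 and LYZ (leukocyte), ESAM and PECAM1 (endothelial), and EPOR and HBG1 (erythroid). The summed intensity of the colon epithelial markers was 15632 and 11957 on the p53-/- arrays, against 16090 and 14588 on the p53+/+ arrays. Of the 9 tested colon epithelial markers 0 were called, while 5 were lower and 1 higher in p53-/- cells at an unadjusted p under 0.05, against 10.2% and 10.6% of all tested probes. Their median difference, p53-/- minus p53+/+, was -0.34 log2 with both p53-/- arrays, -0.19 with p53-/- replicate 2 alone and -0.10 in P2-treated cells, against 0.053, 0.020 and 0.0094 over all tested genes. In such bulk RNA, fewer cells of a type and less RNA per cell cannot be told apart.

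One array stood apart from the rest. On a log2 scale the pair of untreated p53-/- arrays correlated with each other at r = 0.988 across the 13637 tested probes, against r = 0.995 for the p53+/+ pair. Replicate 1 of p53-/- correlated at 0.974 and 0.977 with the p53+/+ arrays, and replicate 2 of p53-/- at 0.991 with the first and 0.992 with the second. Replicate 2 of p53-/- was thus closer to both p53+/+ arrays than to its own replicate. Set against p53+/+ replicate 1, p53-/- replicate 1 had 584 probes at least 2-fold lower and 12 at least 2-fold higher, whereas p53-/- replicate 2 had 104 lower and 18 higher. Between 52.1% (p53-/- replicate 1) and 56.7% (p53+/+ replicate 1) of all probes were detected on an untreated array, and the median intensities ran from 54.1 to 64.2. The main differences are therefore given from both p53-/- arrays and again from p53-/- replicate 2 alone. The second value comes from a fit without p53-/- replicate 1, in which the single remaining array is taken to vary like the other groups.

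Sequences around the start sites of p53 target genes were read first, because promoters are among the places where p53 binds. The p53 response element was searched by its published consensus as a pair of decamers, allowing at most 2 mismatches with the C and G of each core intact and a spacer of 0 to 13 bases. The window was the 250 bases before each gene's RefSeq start on GRCh38.p14, and because the consensus reads the same on both strands 1 search covers both. A match was found in 675 of 27305 promoter windows (2.47%), in 171 of the 8572 windows of tested genes (1.99%) and in 5 of the 77 windows of tested p53 targets (6.49%), namely AEN, DCP1B, GPX1, KRT8 and SYTL1. The 3 in which the decamers adjoin without a spacer are printed 5′ to 3′ on the gene's strand to show what such an element looks like, with the matched element in capitals.
AEN, chr15:88621090-88621339, plus strand: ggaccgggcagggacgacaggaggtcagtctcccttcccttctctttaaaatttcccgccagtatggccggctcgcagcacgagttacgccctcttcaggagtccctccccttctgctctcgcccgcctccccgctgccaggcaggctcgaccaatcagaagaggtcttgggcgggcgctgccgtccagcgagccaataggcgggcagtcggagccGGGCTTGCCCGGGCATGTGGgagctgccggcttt
DCP1B, chr12:2004458-2004707, minus strand: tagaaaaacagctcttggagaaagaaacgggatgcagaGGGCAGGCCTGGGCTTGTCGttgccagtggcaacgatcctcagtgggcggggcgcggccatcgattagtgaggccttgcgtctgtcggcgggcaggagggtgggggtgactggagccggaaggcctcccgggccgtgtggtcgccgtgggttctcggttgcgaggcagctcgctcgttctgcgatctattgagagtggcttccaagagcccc
GPX1, chr3:49358354-49358603, minus strand: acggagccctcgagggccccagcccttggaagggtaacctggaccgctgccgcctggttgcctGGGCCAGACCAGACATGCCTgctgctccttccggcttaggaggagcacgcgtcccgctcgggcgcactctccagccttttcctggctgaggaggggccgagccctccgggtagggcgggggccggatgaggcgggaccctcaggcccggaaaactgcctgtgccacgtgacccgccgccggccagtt
AEN encodes an exonuclease that acts in apoptosis, DCP1B a cofactor of mRNA decapping and GPX1 a glutathione peroxidase. Their fitted differences, p53-/- minus p53+/+ in untreated cells, were -0.033 for AEN, 0.29 for DCP1B and -0.38 log2 for GPX1. Tested genes with a match in the window had a median difference of 0.068 log2, against 0.052 log2 for tested genes without one. Of the 171 with a match 0 were called, against 3 of all 8572 tested genes with a window. A match describes letters only, and its absence says nothing about p53 binding elsewhere in a gene.

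No tested p53 target passed the test between the untreated genotypes, and few probes of the whole array did. Of 120 genes on 6 lists of p53 targets, 113 were matched to a probe by symbol and 90 were tested, by their brightest tested probe. Of the 90, 0 passed an adjusted p of 0.05 with limma, at which 9 of all 13637 probes (0.066%) were called. At an unadjusted p under 0.05, 6 of the 90 were higher and 10 lower in p53-/- cells. Over all tested probes 10.6% were higher and 10.2% lower. By 1 probe per gene, 1099 of all 10368 tested genes were higher and 846 lower. The arrays did not overlap between genotypes for 26 targets that were higher and 23 that were lower in p53-/- cells. Among all tested probes it was 30.4% higher and 20.5% lower (50.9% in all), and among the 10368 genes 3273 higher and 1969 lower. The median difference was 0.043 log2 over the 90 targets and 0.053 over all 10368 tested genes. From p53-/- replicate 2 alone it was 0.0058 over the targets and 0.020 over all tested genes. For 83 of the 90 targets the 95% interval of the difference excluded a 2-fold lower level in p53-/- cells, and for 82 the fitted difference lay within 0.5 log2. Over all 10368 tested genes the same held for 9987 (96.3%) and 9715, against 92.2% of the targets for the interval, and whether the targets differ from all genes in this was not tested. Another 23 targets, among them BBC3, FAS, PLK3 and RPS27L, were detected on fewer than 2 untreated arrays and were not tested, and 7 are not analysed here.

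The arrest genes come first. CDKN1A encodes p21, the CDK inhibitor through which p53 arrests the cycle. Its brighter probe, on chromosome 6, had log2 intensities of 10.06 and 10.07 on the p53-/- arrays, against 9.91 and 10.06 on the p53+/+ arrays. Both p53-/- arrays were level with the higher p53+/+ array, with a difference of 0.081 ± 0.11 log2 (SE) and a 95% interval from -0.16 to 0.32. Its dim second probe gave -0.21 ± 0.17 log2, and neither probe was called by limma (adjusted p = 0.725 and 0.533). GDF15, a secreted stress cytokine, read 9.46 and 9.34 in p53-/- cells, against 9.25 and 9.30 in p53+/+ cells. SFN, the 14-3-3 sigma protein that holds cells in G2, read 11.51 and 11.30 in p53-/- cells, against 11.13 and 11.24 in p53+/+ cells. For both genes each p53-/- array read slightly above each p53+/+ array. GADD45A, a stress protein that binds PCNA and p21, differed by 0.11 log2 and TP53INP1, a cofactor in p53 phosphorylation and autophagy, by 0.20 log2, each with an interval that includes 0. PHLDA3, a repressor of Akt, had the lowest fitted difference of the 13 tested arrest and differentiation genes. It read 6.27 and 6.13 in p53-/- cells, against 6.56 and 6.70 in p53+/+ cells, without overlap. The difference was -0.43 ± 0.11 log2 with both p53-/- arrays and -0.51 with replicate 2 alone, and it was not called (limma adjusted p = 0.0992). PRDM1, a transcriptional repressor, had the highest, at 0.39 ± 0.12 log2 (limma adjusted p = 0.131).

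Of the 8 tested genes of the negative feedback on p53, 0 were called, against 0.066% of all tested probes. MDM2 was dim, being detected on 1 of the p53-/- arrays and on both p53+/+ arrays. Its probe on chromosome 12 read 4.80 and 5.05 on the p53-/- arrays, against 4.88 and 4.84 on the p53+/+ arrays. The difference was 0.063 ± 0.12 log2, with an interval from -0.20 to 0.32 (limma adjusted p = 0.808), and its sign turned under cyclic loess and without p53-/- replicate 2. On the arrays of P2-treated cells the same probe read 4.81 and 4.89 in p53-/- cells, against 5.33 and 5.31 in p53+/+ cells, a difference of -0.47 log2 that was not called either (limma adjusted p = 0.17). CCNG1, a cyclin that guides a phosphatase to MDM2, read 10.54 and 10.40 without p53, against 10.29 and 10.36 with it. PPM1D, the phosphatase that reverses damage signalling to p53, read 8.28 and 8.24 without p53, against 8.19 and 8.25 with it. The 2 ranges of PPM1D overlapped. RCHY1, a ubiquitin ligase for p53, had the highest difference of the 8 tested genes, 0.47 ± 0.14 log2 (limma adjusted p = 0.112). MDM4, an inhibitor of p53 related to MDM2, was not above background on either p53-/- array and entered the test only through the p53+/+ arrays. Its probe read 4.42 and 4.67 in p53-/- cells, against 5.19 and 5.02 in p53+/+ cells. On the means alone this bounds the level at least 1.19-fold lower in p53-/- cells. The 95% interval of the fit included 0, so a lower level is not established, and the probe was not called (limma adjusted p = 0.273).

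The cell death genes held the largest single difference among the targets. ZMAT3, also known as WIG1, encodes a zinc finger protein that binds RNA. Its probe read 6.97 and 7.47 on the p53-/- arrays, against 8.45 and 8.65 on the p53+/+ arrays, so that the lower p53+/+ array lay almost 1 log2 above the higher p53-/- array. The difference was -1.33 ± 0.24 log2, with an interval from -1.87 to -0.80, and -1.08 log2 with p53-/- replicate 2 alone. It missed the threshold with limma (adjusted p = 0.055). In P2-treated cells the same probe read 9.17 and 8.80 in p53-/- cells, against 9.11 and 8.47 in p53+/+ cells, a difference of 0.20 log2. The untreated and treated differences were thus on opposite sides of 0, and the test of their difference was not passed (limma adjusted p = 0.102).

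BAX, which forms pores in the mitochondrial outer membrane, was measured by 3 tested probes. The brightest read 7.75 and 8.48 in p53-/- cells, against 8.80 and 8.61 in p53+/+ cells, a difference of -0.59 ± 0.21 log2 (limma adjusted p = 0.17). The other probes gave -0.95 and 0.13 log2. With p53-/- replicate 2 alone the brightest probe gave -0.22 log2, a smaller difference than over both arrays. The same order was seen for TP53I11, a p53-induced membrane protein, at -0.88 log2 with both arrays and -0.42 with replicate 2 alone. TNFRSF10A, a death receptor for TRAIL, gave -0.60 log2 with both arrays and -0.40 with replicate 2 alone (limma adjusted p = 0.141 for both arrays). Its relative TNFRSF10B read 10.26 and 10.06 in p53-/- cells, against 10.21 and 10.24 in p53+/+ cells, with overlapping arrays, while a second, dimmer probe of TNFRSF10B gave 0.60 log2 (limma adjusted p = 0.1). PMAIP1, the BH3-only protein NOXA, read 8.66 and 8.52 in p53-/- cells, against 8.58 and 8.71 in p53+/+ cells. TP53I3, an oxidoreductase, read 6.83 and 6.57 in p53-/- cells, against 6.70 and 6.75 in p53+/+ cells. AEN, one of the genes with an element printed above, read 9.12 and 9.03 in p53-/- cells, against 9.06 and 9.16 in p53+/+ cells. For all 3 of these the genotypes overlapped. Over the 16 tested cell death targets the median was -0.048 log2 with both p53-/- arrays and -0.13 with replicate 2 alone, and 4 were lower and 0 higher at an unadjusted p under 0.05, against 10.2% and 10.6% of all probes.

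Among the 7 tested DNA repair targets, 0 passed an unadjusted p of 0.05 in either direction, against 20.7% of all tested probes. DDB2, the damage-recognition subunit for ultraviolet lesions, read 5.81 and 5.73 in p53-/- cells, against 5.75 and 5.49 in p53+/+ cells. XPC, its partner in nucleotide excision repair, read 9.20 and 9.26 in p53-/- cells, against 9.18 and 9.15 in p53+/+ cells. RRM2B, the p53-inducible ribonucleotide reductase subunit, differed by 0.14 ± 0.13 log2 and PCNA, the sliding clamp, by -0.094 ± 0.11. The intervals of all 7 excluded a 2-fold difference in either direction, as did those of 9925 of the 10368 tested genes. Of the 17 metabolic and redox targets, SESN1, a sestrin that restrains mTORC1, was higher at 0.31 ± 0.12 log2, while GPX1 was lower at -0.38 ± 0.12 log2. Neither was called (limma adjusted p = 0.192 and 0.117). TIGAR, a fructose bisphosphatase, differed by 0.20 log2 and SCO2, a cytochrome c oxidase assembly protein, by -0.23. The 30 remaining targets ran from -1.003 log2 for TRAF4, an adaptor protein, to 0.56 log2 for MICALL1, an endosomal protein. With p53-/- replicate 2 alone these were -0.37 and 0.32 log2. KRT8, a keratin of simple epithelia and one of the genes with an element in its window, read 11.98 and 11.84 without p53, against 11.50 and 11.46 with it. Its difference of 0.43 ± 0.11 log2 was not called (limma adjusted p = 0.0879). The plot of p53 targets by role shows the same values.

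**Figure D1:**
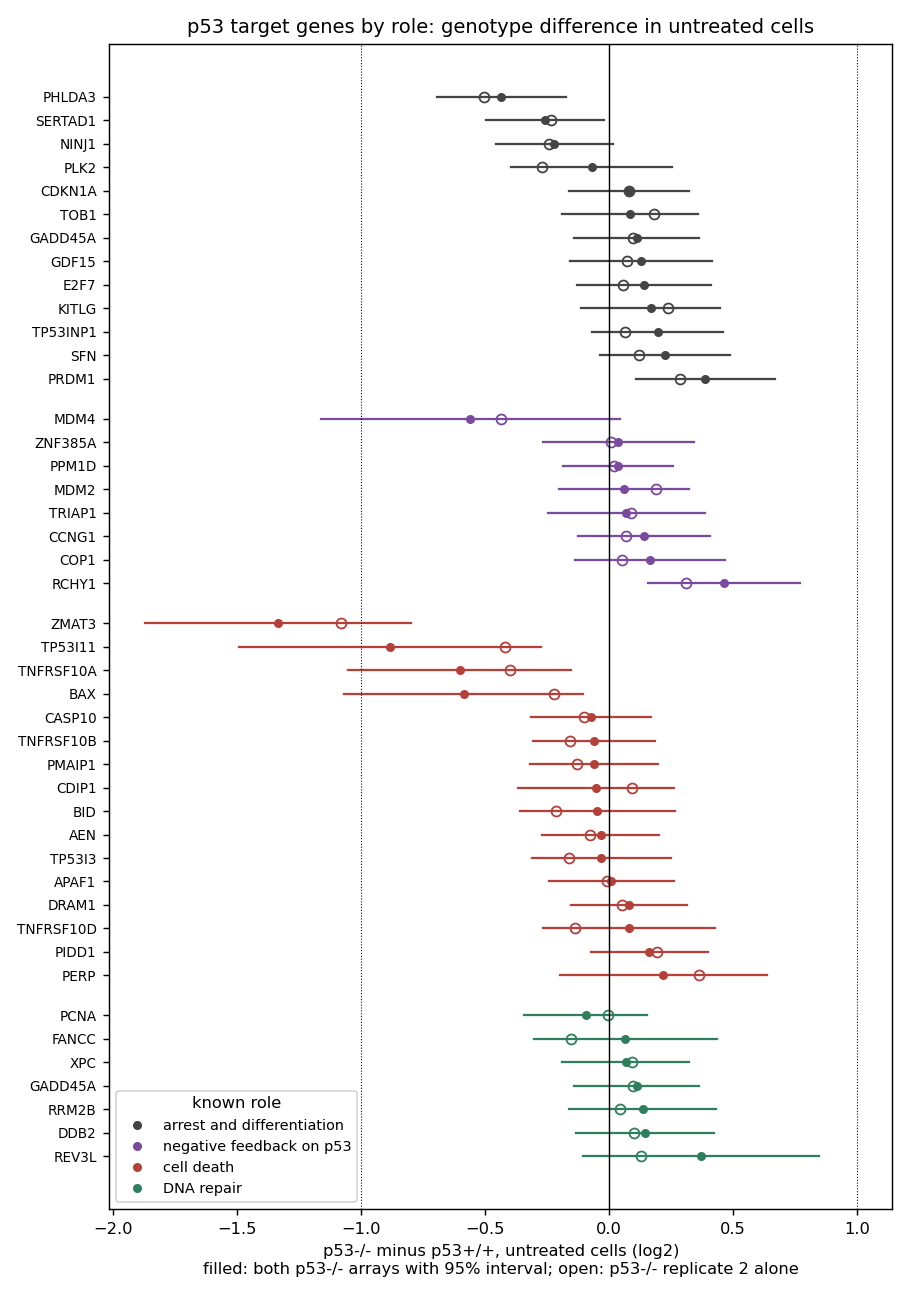
Fitted differences (x axis, log2, p53-/- minus p53+/+ in untreated cells) of the tested p53 targets in the arrest, feedback, cell death and repair lists, 1 gene per row. Filled points with lines give the estimate from both p53-/- arrays with its 95% interval, open points give p53-/- replicate 2 alone, and most lines cross 0, with ZMAT3 farthest to the left at -1.33; MDM4, not above background in p53-/- cells, is a bound only.

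Across the whole array, 9 probes were called between the untreated genotypes, 3 higher (0.022%) and 6 lower (0.044%) in p53-/- cells. All 9 carry a gene symbol. Of them 7 were detected on all 4 untreated arrays and 2 only on the p53+/+ arrays, and on none of them did the p53-/- arrays lie 1 log2 or more apart. Leaving out 1 P2-treated array changes no untreated mean. Such a fit only loses that group's spread from the shared estimate, so either array of the group gives the same count. The count of 9 changed when single arrays were left out. It was 5 without p53-/- replicate 1 and 1346 without p53-/- replicate 2, 0 with p53+/+ replicate 1 or 2 left out, 0 with P2-treated p53-/- replicate 1 or 2 left out, and 58 with P2-treated p53+/+ replicate 1 or 2 left out. Under a limma adjusted p of 0.1 there were 605 probes (4.44%), of which 201 were higher (1.47%) and 404 lower (2.96%). At an unadjusted p under 0.05 there were 2825 probes (20.7%), and 12508 of the 13637 (91.7%) had a fitted difference within 0.5 log2.

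The 3 higher probes belong to BCAM, ATN1 and RTL8A. BCAM, on chromosome 19, encodes the Lutheran adhesion molecule, a receptor for laminin. It read 6.59 and 6.06 in untreated p53-/- cells, against 4.94 and 4.89 in untreated p53+/+ cells. The difference was 1.41 ± 0.16 log2, a level 2.66-fold higher without p53 (limma adjusted p = 0.0371), and 1.15 log2 with replicate 2 alone. A second, dimmer BCAM probe, detected on the p53+/+ arrays only, read 4.50 and 4.64 in p53-/- cells, against 4.84 and 4.90 in p53+/+ cells. In P2-treated cells the called probe read 5.19 and 5.18 in p53-/- cells, against 4.73 and 4.72 in p53+/+ cells, a difference of 0.46 log2 in the same direction. ATN1, on chromosome 12, encodes the transcriptional corepressor atrophin-1. It read 11.16 and 10.71 in untreated p53-/- cells, against 9.70 and 9.76 in untreated p53+/+ cells. The difference was 1.20 ± 0.16 log2 (limma adjusted p = 0.0489) with both p53-/- arrays, 0.98 with replicate 2 alone and 0.54 in P2-treated cells. Its second probe read 5.87 and 7.08 in p53-/- cells, against 6.76 and 6.27 in p53+/+ cells, so that the arrays overlapped there. RTL8A, an X-linked gene derived from a retrotransposon Gag sequence, read 7.94 and 7.68 in untreated p53-/- cells, against 6.84 and 6.76 in untreated p53+/+ cells. That probe may also bind transcripts of its near-identical neighbours, which was not tested. The difference was 1.01 ± 0.12 log2 (limma adjusted p = 0.041), or 0.88 with replicate 2 alone, and in P2-treated cells it was -0.31 log2, on the other side of 0.

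The 6 lower probes belong to LCOR, H4C3, DFFA, USF1, CTSB and FSD1. LCOR, on chromosome 10, encodes a corepressor of nuclear receptors. It read 5.90 and 5.81 in untreated p53-/- cells, against 7.08 and 7.20 in untreated p53+/+ cells, and 8.09 and 7.60 in P2-treated p53-/- cells, against 7.18 and 6.93 in P2-treated p53+/+ cells. The untreated difference was -1.28 ± 0.17 log2 (limma adjusted p = 0.0489) with both p53-/- arrays and -1.32 with replicate 2 alone, and the treated one was 0.79 log2, so the lines changed order. H4C3, on chromosome 6, encodes a histone H4 and may share probe signal with other H4 genes, which was not tested. It read 11.53 and 11.47 in untreated p53-/- cells, against 12.77 and 12.73 in untreated p53+/+ cells. Its arrays within a genotype lay within 0.1 log2 of each other and the difference was -1.25 ± 0.14 log2 (limma adjusted p = 0.0371), or -1.28 with replicate 2 alone. In P2-treated cells the H4C3 difference was 0.41 log2. USF1, on chromosome 1, encodes a transcription factor that binds E-boxes. It read 5.31 and 5.63 in untreated p53-/- cells, against 6.60 and 6.65 in untreated p53+/+ cells. The difference was -1.15 ± 0.13 log2 (limma adjusted p = 0.0371), or -0.995 with replicate 2 alone, and a second USF1 probe gave -0.47 log2 in the same direction without being called (limma adjusted p = 0.0898). CTSB, the lysosomal protease cathepsin B, read 7.34 and 7.57 in untreated p53-/- cells, against 8.41 and 8.41 in untreated p53+/+ cells. Its difference was -0.95 ± 0.12 log2 (limma adjusted p = 0.0489), or -0.83 with replicate 2 alone.

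DFFA and FSD1 were detected on both p53+/+ arrays and on neither p53-/- array, so they passed the detection rule only through the group in which they are higher, and their folds are bounds. DFFA, on chromosome 1, encodes the inhibitor that holds the caspase-activated DNase in check. Its probe read 4.65 and 4.62 in p53-/- cells, against 5.82 and 5.79 in p53+/+ cells, which puts p53-/- cells at least 1.93-fold lower than p53+/+ cells (limma adjusted p = 0.0371). Another DFFA probe, detected on all 4 arrays, read 6.10 and 6.13 in p53-/- cells, against 5.82 and 5.90 in p53+/+ cells, so the probes of the gene disagreed in sign. FSD1, on chromosome 19, encodes a protein with fibronectin and SPRY domains that associates with microtubules. Its called probe read 4.36 and 4.51 in p53-/- cells, against 5.27 and 5.33 in p53+/+ cells, which puts p53-/- cells at least 1.36-fold lower than p53+/+ cells (limma adjusted p = 0.0451). Of its other 2 probes, one gave -1.24 log2 (limma adjusted p = 0.055) and one gave -0.054 log2. The panel plot of the 9 called probes shows every array.

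**Figure D2:**
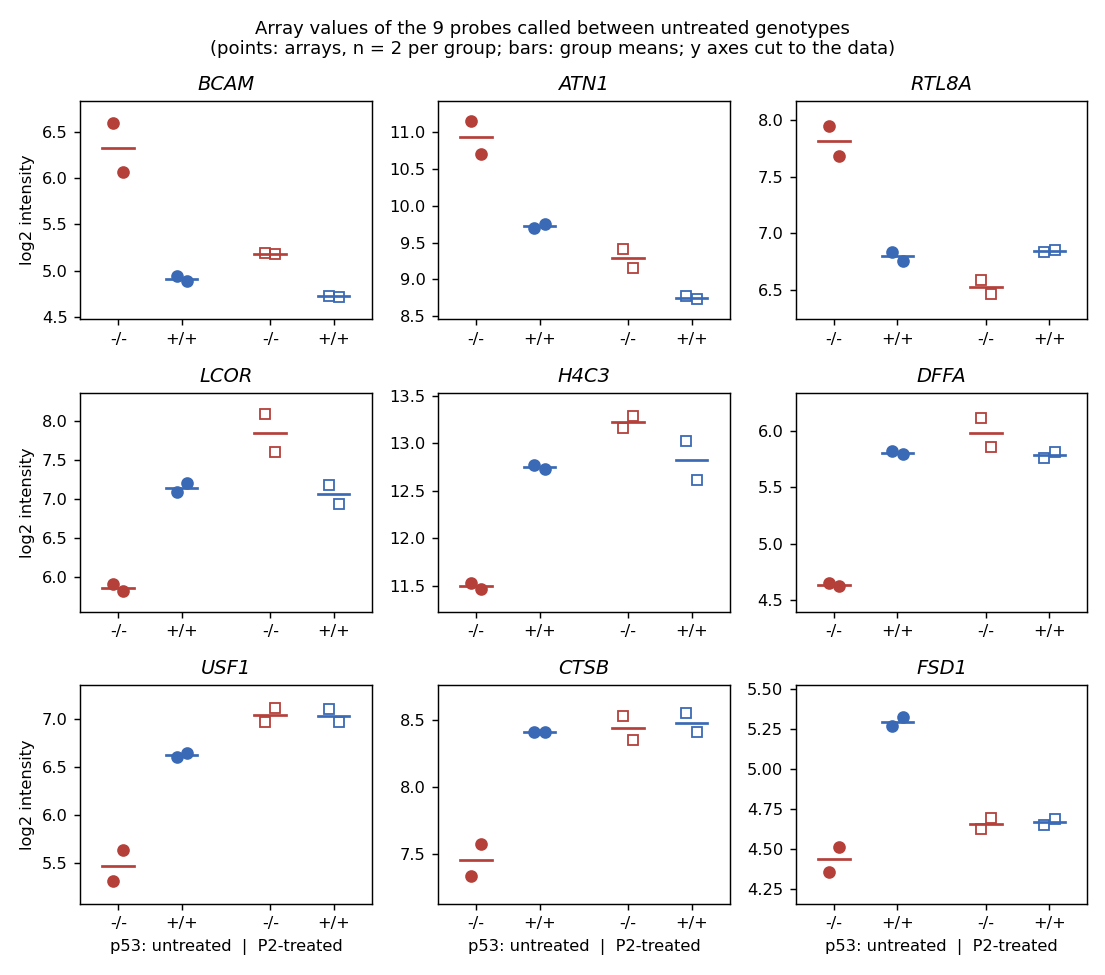
Normalized log2 intensity (y axis, cut to the data) of the 9 probes called between untreated genotypes, 1 panel per gene, with untreated cells (filled circles) left of P2-treated cells (open squares) and p53-/- left of p53+/+. Each point is an array, each bar the mean of 2. The untreated genotypes do not overlap in any panel, as for 50.9% of all tested probes. The panels were chosen by their untreated difference, so this is no separate support. The P2-treated genotypes lie close together for USF1, CTSB and FSD1.

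The probes that came next were not called and were chosen after their values were seen, by the smallest p in each direction. Only probes whose genotypes did not overlap and whose p53-/- arrays lay less than 1 log2 apart could enter. Of the 8 on the higher side, AP1B1, a subunit of a clathrin adaptor, read 7.16 and 7.09 in p53-/- cells, against 6.31 and 6.03 in p53+/+ cells (difference 0.95 log2, limma adjusted p = 0.0526), while its brighter probe gave -0.040 log2 (limma adjusted p = 0.881). NR3C2, the mineralocorticoid receptor, read 6.30 and 6.35 in p53-/- cells, against 5.59 and 5.69 in p53+/+ cells. Its difference was 0.69 log2 in untreated and 0.48 log2 in P2-treated cells, the same direction in both. TTI1, a cofactor for the stability of PI3K-related kinases, differed by 0.79 log2 and ELK3, an ETS-family repressor, by 0.67. MAPK8IP2, a scaffold of JNK signalling, differed by 0.77 log2, UTP20, a ribosome biogenesis factor, by 0.91, and the cornified envelope gene SPRR2D by 0.71. KMT2E differed by 0.94 log2, and its other probes disagreed in sign, at 0.84 and -0.52 log2. From p53-/- replicate 2 alone these 8 differences ran from 0.59 (ELK3) to 0.91 log2 (AP1B1). Their sign follows from the choice of probes without overlap and is no separate support.

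Of the 8 on the lower side, COA8, a mitochondrial factor for cytochrome c oxidase assembly, read 6.04 and 6.11 in p53-/- cells, against 7.66 and 7.39 in p53+/+ cells (difference -1.45 log2, limma adjusted p = 0.055). VHL, the substrate receptor of the ligase that degrades hypoxia-inducible factors, read 5.04 and 5.25 in p53-/- cells, against 6.32 and 6.31 in p53+/+ cells. Its difference was -1.17 log2, with -0.32 and -0.22 on its other probes, all of the same sign. CSNK2A1, a catalytic subunit of casein kinase 2, differed by -1.18 log2 on a dim probe but by -0.020 and 0.061 on a pair of far brighter probes. SLC25A29, a mitochondrial carrier of basic amino acids, differed by -0.98 log2, TENM3, a teneurin, by -1.03, LIMK2, the kinase of cofilin, by -0.84 and the pseudogene AOC4P by -0.90. WDR81, detected on the p53+/+ arrays only, was at least 1.9-fold lower in p53-/- cells. From p53-/- replicate 2 alone these 8 differences ran from -1.41 (COA8) to -0.69 log2 (LIMK2), with a sign again set by the choice of probes without overlap.

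The cell cycle genes that p53 lowers through p21 and the DREAM complex were examined because they would be the indirect targets. Of 55 tested mitosis genes 0 were called, while 8 were higher and 2 lower in p53-/- cells at an unadjusted p under 0.05, against 10.6% and 10.2% of all probes. Their median difference was 0.093 log2 with both p53-/- arrays and 0.041 with replicate 2 alone, against 0.053 and 0.020 over all tested genes. PRC1, which bundles the spindle midzone, read 12.06 and 11.89 in p53-/- cells, against 11.61 and 11.56 in p53+/+ cells. FOXM1, a transcription factor of the mitotic programme, read 9.50 and 9.33 in p53-/- cells, against 9.14 and 8.95 in p53+/+ cells. Each p53-/- array was above each p53+/+ array for both genes, and neither gene was called (limma adjusted p = 0.101 for PRC1 and 0.156 for FOXM1). Of the 55 genes 23 were higher and 7 lower without overlap, against 30.4% and 20.5% of all tested probes. Whether this list differs from all probes was not tested. CENPF, a kinetochore protein, differed by 0.41 log2, PLK1, the mitotic kinase, by 0.28 and SPC24, a subunit of the NDC80 kinetochore complex, by -0.59. Of 47 tested DNA replication and E2F genes 0 were called, with 6 higher and 5 lower at an unadjusted p under 0.05 and a median of 0.0033 log2, against 10.6% and 10.2% of all probes and a median of 0.053 over all tested genes. CHAF1A, a histone chaperone subunit at replication forks, was the highest of them, at 6.96 and 6.81 in p53-/- cells, against 6.29 and 6.22 in p53+/+ cells (limma adjusted p = 0.0731). UHRF1, a reader of hemimethylated DNA, read 4.54 and 6.63 in p53-/- cells, against 7.33 and 6.43 in p53+/+ cells, and so was low on 1 array only.

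The histone list held the only called list member, H4C3, described above. Its 15 tested genes had a median of -0.066 log2, and H2AX, the histone variant marked at DNA breaks, read 5.33 and 8.02 in p53-/- cells, against 8.99 and 8.997 in p53+/+ cells. The 19 tested BCL2 family and caspase genes had a median of -0.0084 log2, with 1 higher and 5 lower at an unadjusted p under 0.05, against 10.6% and 10.2% of all probes. BAK1, the second pore-forming protein beside BAX, differed by -0.39 ± 0.11 log2 (limma adjusted p = 0.111) and the initiator caspase gene CASP8 by -0.50 ± 0.15 (limma adjusted p = 0.113). CCND1, the cyclin of the G1 phase, differed by 0.33 log2 and CDKN2A, which encodes p16 and ARF, by -0.66, or -0.33 with replicate 2 alone.

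Of 23 tested junction and colon differentiation genes 0 were called, 9 were lower and 2 higher at an unadjusted p under 0.05 (10.2% and 10.6% of all probes), and the arrays did not overlap for 12 that were lower and 4 that were higher, against 20.5% and 30.4% of all tested probes. CLDN4, a tight junction claudin, read 4.97 and 4.98 in p53-/- cells, against 5.71 and 5.55 in p53+/+ cells. It read 5.48 and 5.14 in P2-treated p53-/- cells, against 5.83 and 5.89 in P2-treated p53+/+ cells, so that its difference of -0.65 log2 in untreated cells stood beside -0.55 in treated ones (limma adjusted p = 0.0693 and 0.168). PKP3, a desmosomal plakophilin, read 4.77 and 5.71 in p53-/- cells, against 7.01 and 6.67 in p53+/+ cells (limma adjusted p = 0.055). CDX2, the transcription factor of intestinal identity, differed by -0.56 log2 with both p53-/- arrays and -0.39 with replicate 2 alone. KRT18, the partner of KRT8, read 4.49 and 6.51 in p53-/- cells, against 7.43 and 7.34 in p53+/+ cells, and is one of the probes that were low on p53-/- replicate 1. KRT8 itself went the other way, at 0.43 log2, the highest of the list. Of the 23 genes 14 had a fitted difference below 0 and 9 above 0. The list's median was -0.070 log2 with both arrays, -0.048 with replicate 2 alone and -0.061 in P2-treated cells, against 0.053, 0.020 and 0.0094 over all tested genes. The plot of list medians gives the remaining lists.

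**Figure D3:**
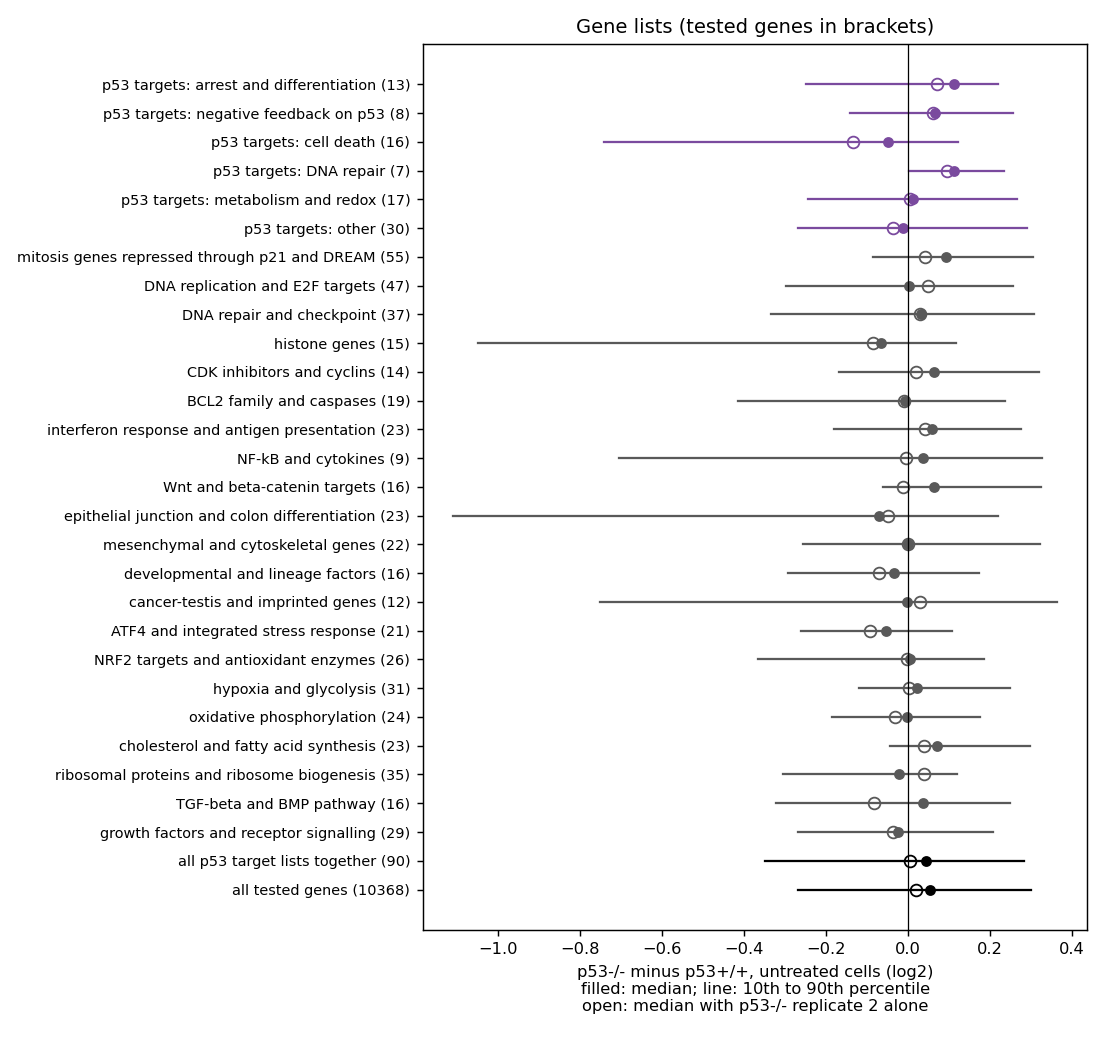
Median difference of each gene list (filled points, log2, p53-/- minus p53+/+ in untreated cells) with the 10th to 90th percentile of its tested members (lines) and the median from p53-/- replicate 2 alone (open points). The medians of the lists shown run from -0.070 to 0.11, against 0.053 for all tested genes, and the longest lines reach -1.11 for the epithelial list and -1.05 for the histone list.

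The probes that set p53-/- replicate 1 apart were counted separately. On that array 215 probes of 182 genes were at least 1 log2 below p53-/- replicate 2, and 0 were at least 1 log2 above it. Of the 247 probes that were at least 2-fold lower in p53-/- cells over both arrays (1.81% of those tested), 150 were among these 215, whereas only 7 probes (0.0513%) were at least 2-fold higher. None of the 215 was called. Their choice lowers the mean over both arrays and raises replicate 2, so the values are a description. The median difference was -1.22 log2 over both p53-/- arrays, -0.54 with replicate 2 alone and -0.077 in P2-treated cells, where other arrays were compared. On replicate 2, 196 of the 215 were still below the p53+/+ mean, where the median difference over all tested genes was 0.020 log2. ALYREF, an mRNA export adaptor, read 4.81 and 8.33 in untreated p53-/- cells, against 9.73 and 9.60 in untreated p53+/+ cells. A probe of ALDOA, the glycolytic aldolase, read 7.88 and 11.27 in p53-/- cells, against 12.64 and 12.19 in p53+/+ cells. CD151, a tetraspanin, read 4.44 and 6.98 in p53-/- cells, against 8.35 and 8.29 in p53+/+ cells. In all 3 cases replicate 1 lay far below replicate 2, which in turn lay below both p53+/+ arrays. In P2-treated cells CD151 read 9.19 and 8.98 in p53-/- cells, against 9.30 and 9.01 in p53+/+ cells, and the genotypes overlapped. The brightest ALDOA probe, which was not low, read 12.84 and 12.62 in untreated p53-/- cells, against 12.66 and 12.57 in untreated p53+/+ cells. For 115 of the 182 genes another tested probe was not low, and these other probes, chosen for not being low, had a median difference of 0.0063 log2. Of all 10368 tested genes 1596 had over 1 tested probe. Of the low probes with a known chromosome, 43.2% were on chromosomes 11, 16, 17, 19 and 22, against 26.5% of such other tested probes. No stated rule set the choice of these chromosomes. The promoter windows of the genes of low probes had a median GC content of 66.0%, against 64.8% for other tested genes. What sets these probes apart was not tested further.

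**Figure D4:**
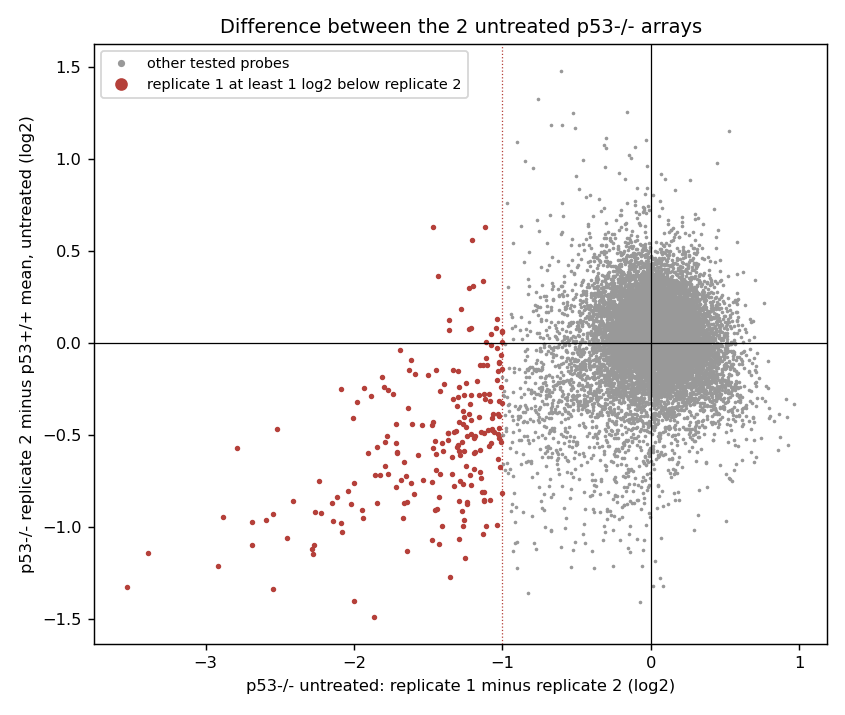
Each point is 1 of the 13637 tested probes, with p53-/- replicate 1 minus replicate 2 on the x axis and p53-/- replicate 2 minus the p53+/+ mean on the y axis (both log2, untreated cells). The 215 probes left of -1 (red) have no counterpart right of 1, and 196 of them also lie below 0 on the y axis.

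With p53-/- replicate 2 alone, 5 probes were called (0.0367%), 2 higher (0.0147%) and 3 lower (0.022%). BCAM and DFFA, of which DFFA was not above background in p53-/- cells, were among the 9 called with both arrays. The other 3 were H6PD, a glucose dehydrogenase of the endoplasmic reticulum, at 1.09 log2, TRNP1, a nuclear protein, at -1.28 and CD151 at -1.34 (limma adjusted p = 0.036 for each of the 5). On this basis 16 probes (0.117%) were at least 2-fold higher and 56 (0.411%) at least 2-fold lower in p53-/- cells, and 1573 (11.5%) had an unadjusted p under 0.05.

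The same genotypes were also compared in P2-treated cells, on arrays that enter no untreated mean. There 0 probes were called by limma (smallest adjusted p = 0.167), 1935 (14.2%) had an unadjusted p under 0.05, and 1 probe was at least 2-fold higher (0.00733%) and 1 at least 2-fold lower (0.00733%) in p53-/- cells. Across the 13637 tested probes the untreated and the treated differences correlated at r = -0.0108, or -0.0814 with p53-/- replicate 2 alone, a description over probes, which are not independent replicates. Of the 9 called probes, BCAM and ATN1 kept a fitted difference above 0.4 log2 in the same direction, USF1, CTSB and FSD1 were within 0.1 log2 of 0, and RTL8A, LCOR, H4C3 and DFFA had the opposite sign. The difference between the untreated and the treated genotype difference was called for 0 probes by limma (smallest adjusted p = 0.0781), with 2292 (16.8%) at an unadjusted p under 0.05. LCOR had the largest such difference of the 9, at -2.07 log2 (limma adjusted p = 0.0781).

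**Figure D5:**
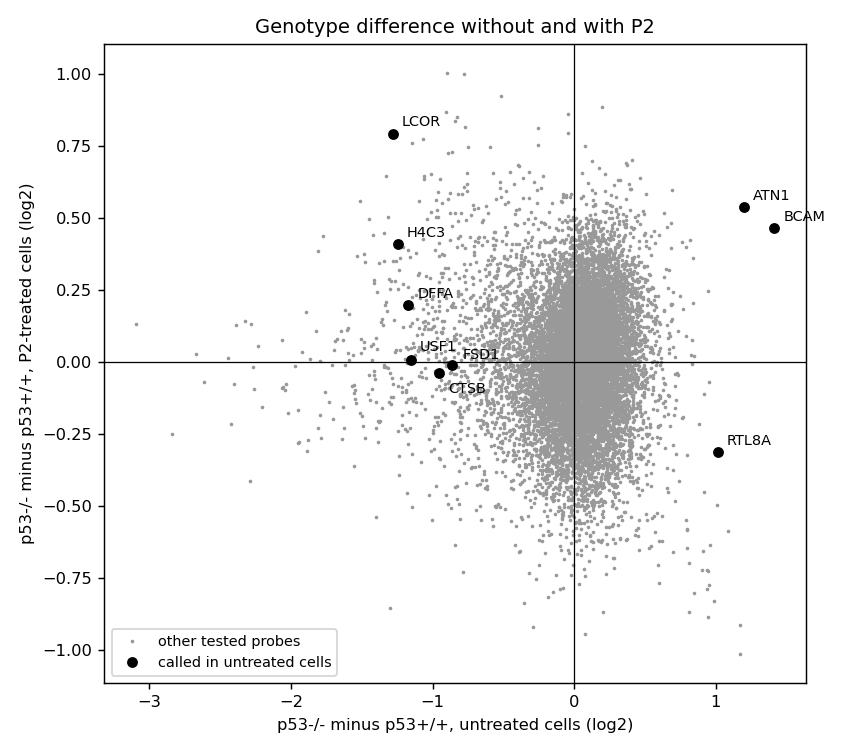
Genotype difference (log2, p53-/- minus p53+/+) in untreated cells on the x axis against the same in P2-treated cells on the y axis for the 13637 tested probes, with the 9 called probes in black. BCAM and ATN1 lie in the upper right, USF1, CTSB and FSD1 near 0 on the y axis, and the cloud has no slope (r = -0.0108).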

How the data were processed

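Total RNA of 8 samples (4 of untreated cells, 4 of P2-treated cells) was measured on Illumina chips. The authors deposited non-normalized intensities with detection p-values, 1 pair of columns per array per the file headers, and a table of log2 values that equals the quantile-normalized log2 intensities to within 5.0e-09. GenomeStudio is named without a version, per the submitters' processing notes; its settings are not given in the sources used here. Samples were grouped by their titles.

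From the intensities, background was corrected with limma 3.58.1 (R 4.3.3) by normexp from the detection p-values (offset 16). The log2 values of all 8 arrays were then quantile-normalized. Probes with detection p under 0.05 on at least 2 untreated arrays were tested (12381 of 13637 carry a symbol, for 10368 genes, 1596 of them with over 1 tested probe). Of all probes, 21834 had 1 symbol in the platform annotation, 2692 had none and 0 had several, and symbols were updated by gene ID. A mean for each of the 4 groups was fitted in 1 model (4 residual and 4.94 prior degrees of freedom), with two-sided moderated tests and Benjamini-Hochberg adjustment over all tested probes within a contrast. "Called" means an adjusted p under 0.05. Intervals are 95%. A bound ("at least") uses the lowest level among detected probes. The scripts were tested on simulated data.

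Named genes were CDKN1A, MDM2, the 12 largest called differences in each direction, called list members and the p53 targets. Also named were the next 8 uncalled genes by p in each direction. Other named genes, among them uncalled members of the other lists, were picked after their values were seen, without a set rule. The members, lists and tests were chosen with earlier results of these data known. Alternatives changed the background, normalization, filter, variance model, pairing and samples. Gene lists were described by counts and medians of 1 probe per gene, the brightest, with no set test. Shares of all tested probes given beside list counts include every tested probe of a gene.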

Additional observations from a re-analysis of the deposited data

How the results depend on the processing

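The number of called probes in untreated cells, 9 (3 higher, 6 lower in p53-/- cells), moved with most settings. With no background correction, and equally with the authors' log2 values, it was 314 (82, 232); with an offset of 50 it was 94 (25, 69), with median scaling 682 (111, 571), with detection p under 0.01 on all 4 untreated arrays 186 (71, 115), and with robust moderation on a variance trend 252 (87, 165). Array weights gave 2 (1, 1). Cyclic loess, no filter, only the 4 untreated arrays and a minimum change of 1.5-fold gave 0 each, with 2577, 3705, 2265 and 227 probes at an unadjusted p under 0.05 in limma, in that order. Detection on 2 of all 8 arrays gave 10 (4, 6). The share of higher calls was 33.3%, and 16.3% with median scaling. Leaving out 1 array gave 0 to 1346 calls, 0 to 386 of them higher and 0 to 960 lower. Leaving out p53-/- untreated replicate 1 gave 5 (2, 3), p53-/- untreated replicate 2 gave 1346 (386, 960) and either P2-treated p53+/+ array 58 (16, 42). Leaving out either p53+/+ untreated array or either P2-treated p53-/- array gave 0. All 9 called probes kept their direction in each of the 21 or 22 settings in which they were tested, and kept the call in 9 (FSD1) to 12 (BCAM, DFFA). The 9 were chosen on these same arrays and did not overlap between genotypes, so their kept direction is no separate support. Apart from the spread that is lost when an array of P2-treated cells is left out, the cause of these shifts was not tested.

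A replicate block gave 0 calls, with a smallest limma adjusted p of 0.0604 and 2748 probes at an unadjusted p under 0.05. The labels do not state whether the replicate numbers pair the samples. The differences of replicate 1 minus 2 correlated at -0.192 between the untreated genotypes and at 0.203 between the P2-treated ones. These values have opposite signs and do not settle the pairing. A crossed replicate block, chosen after seeing the data, gave 778 calls (175, 603).

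Of the p53 targets, ZMAT3 was called with median scaling, no background correction, the authors' values, the offset of 50, the crossed block, the stricter detection filter and without P2-treated p53+/+ replicate 1 or 2. Also called were TM7SF3, TP53I11 and TRAF4 (lower, median scaling), PHLDA3, TM7SF3 and TNFRSF10A (lower, crossed block) and KRT8 (higher, variance trend). Without p53-/- untreated replicate 2, 10 of the 90 targets were called, 4 higher (DCP1B, KRT8, MICALL1, RCHY1) and 6 lower (BAX, TM7SF3, TNFRSF10A, TP53I11, TRAF4, ZMAT3), where 7.83% of all tested genes were called. MDM2 turned to -0.0025 log2 with cyclic loess and to -0.066 without p53-/- untreated replicate 2, where leaving out 1 array in turn gave -0.066 to 0.19.

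In P2-treated cells the count of 0 became 13 with median scaling, 3 with the stricter detection filter and 83 with the variance trend. For the difference between the untreated and treated genotype differences the count of 0 became 2 with no background correction or the authors' values, 537 with median scaling, 83 with the stricter filter, 180 with the variance trend and 292 with the crossed block. Leaving out 1 array gave 0 to 1001 such calls, with 1001 without p53-/- untreated replicate 2 and 78 without P2-treated p53+/+ replicate 1. The counts above run over all tested probes, whereas the totals that follow cover only the called probes, the probes that came next by p, and those of CDKN1A and MDM2. Over the alternatives, 367 of their values stayed on their side of the threshold, 134 passed it in addition, 96 lost it and 2 changed sign. Signal over background limits dim probes: 9900 probes were detected on none of the 4 untreated arrays.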

Other observations

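Values below are p53-/- minus p53+/+ in untreated cells unless stated. Of 37 tested DNA repair and checkpoint genes 0 were called, against 0.066% of all tested probes. MSH3, a mismatch repair protein, read 9.18 and 9.45 on the p53-/- arrays, against 10.44 and 10.30 on the p53+/+ arrays, and 11.01 and 10.90 in P2-treated p53-/- cells, against 11.20 and 10.41 in P2-treated p53+/+ cells. Its untreated difference was -1.05 ± 0.22 log2 (limma adjusted p = 0.0731), or -0.92 with p53-/- replicate 2 alone, against 0.14 in P2-treated cells. XRCC6, the Ku70 subunit of end joining, differed by 0.32 log2, and OGG1, the glycosylase of oxidized guanine, by -1.22 log2 with both p53-/- arrays and -0.57 with replicate 2 alone.

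Of 23 tested sterol and fatty acid synthesis genes 3 were higher and 0 lower in p53-/- cells at an unadjusted p under 0.05, against 10.6% and 10.2% of all tested probes, and 0 were called. LSS, lanosterol synthase, read 8.61 and 8.58 in p53-/- cells, against 8.24 and 8.27 in p53+/+ cells, ACACA, the first enzyme of fatty acid synthesis, differed by 0.34 log2 and SCD, the stearoyl desaturase, by 0.31. The list's median was 0.070 log2, against 0.053 over all tested genes. Of 12 tested cancer-testis and imprinted genes 3 were higher and 1 lower at an unadjusted p under 0.05, against 10.6% and 10.2% of all tested probes. PRAME, a cancer-testis antigen, read 9.37 and 9.31 in p53-/- cells, against 8.86 and 9.07 in p53+/+ cells (limma adjusted p = 0.119). MEST, an imprinted gene, read 5.22 and 6.55 in p53-/- cells, against 6.94 and 6.46 in p53+/+ cells, and so was low on 1 array. Among 23 tested interferon and antigen presentation genes, IFITM2, an interferon-induced membrane protein, was the 1 gene past an unadjusted p of 0.05 (20.7% of all probes passed it), with a difference of 0.33 ± 0.11 log2 in untreated and -0.16 in P2-treated cells. RBL2, the pocket protein p130 of the DREAM complex, differed by 0.47 log2 in untreated and 0.35 in P2-treated cells, the same direction in both (limma adjusted p = 0.101 and 0.278).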
